A study of Mus musculus with 28 samples.

Results

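The matrix metalloproteinases (Mmp genes), the ADAMTS proteases (Adamts genes) and their inhibitors, the TIMPs (Timp genes), were followed through mammary epithelial cells in culture. Members were all protein-coding genes with a symbol made of Mmp, Adamts or Timp and a number, by the GENCODE vM21 annotation, which gave 45 genes among 56748 identifiers counted, namely 22 Mmp, 19 Adamts and 4 Timp genes. Mmp1a, protein-coding in RefSeq, is not annotated as such there and is no member. RNA came from a pair of mouse mammary epithelial lines, HC11, which is not transformed and is used to study milk-producing differentiation, and the mammary cancer line 4T1. There were 10 HC11 libraries labelled DOX + DIP, 8 4T1 libraries labelled DOX and 10 HC11 libraries labelled DOX, so that all 28 carry DOX. The labels spell out neither DOX nor DIP, and name no construct, clone, culture or batch. With HC11 cells DIP commonly denotes dexamethasone, insulin and prolactin. Both comparisons below are against the same 10 HC11 DOX libraries.

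Metalloproteinases of the Mmp and Adamts families carry a zinc ion in the active site and are made as inactive proenzymes. Mmp enzymes cut collagens, gelatin and many other proteins, and several are anchored in the cell membrane. Adamts enzymes add thrombospondin repeats that hold them in the matrix, and they cut proteoglycans, procollagens or single blood proteins. TIMPs bind the active site and block it, and Timp3 also blocks several Adamts enzymes. In the mammary gland these enzymes take part in the branching of ducts and in the remodelling that follows weaning.

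Mmp3 and Mmp10, secreted enzymes at far higher levels in 4T1 than in HC11 libraries, lie in a cluster of Mmp genes on chromosome 9, in the order Mmp13, Mmp12, Mmp1b, Mmp3, Mmp10, Mmp8, Mmp27, Mmp20 and Mmp7, with Mmp1a between Mmp3 and Mmp10. RefSeq promoters (GRCm38.p6, a build other than that of the counts) were matched for 31 of the 45 members. Mmp2, Mmp9, Adamts5 and Adamts8 were among the 14 not matched and were not searched. Within 250 bases before the start, the AP-1 letters TGANTCA (the same on either strand) were found in 7 of the 9 cluster genes and in 0 of the other 22 members matched, and in 7.82% of 27025 genes with a promoter. The 7 were Mmp13, Mmp12, Mmp1b, Mmp3, Mmp10, Mmp20 and Mmp7. N stood for any base, and the match was TGACTCA in Mmp13, TGAATCA in Mmp20 and TGAGTCA in the rest. These counts, and the 7.82%, are thus of a looser pattern than TGAGTCA or TGACTCA alone. TATAAA, which overlaps none of the letters above in the stretches shown, was searched on both strands. It was in 6 of the 9 cluster genes, in 2 of the other 22 members matched and in 14.3% of genes. The 150 bases before the start of 5 cluster genes follow, 5′ to 3′ on the strand of the gene, with the AP-1 letters in capitals. They are shown for the 4 cluster genes that were high together in some HC11 DOX libraries and for Mmp1b, counted in every 4T1 library. Mmp13 is at chr9:7272364-7272513, Mmp12 at chr9:7347224-7347373, Mmp3 at chr9:7445672-7445821 and Mmp10 at chr9:7502192-7502341, all on the plus strand, and Mmp1b is at chr9:7388027-7388176 on the minus strand.
Mmp13: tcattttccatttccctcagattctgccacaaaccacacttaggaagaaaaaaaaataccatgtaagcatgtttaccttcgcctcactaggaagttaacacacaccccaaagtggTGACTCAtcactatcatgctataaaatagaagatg
Mmp12: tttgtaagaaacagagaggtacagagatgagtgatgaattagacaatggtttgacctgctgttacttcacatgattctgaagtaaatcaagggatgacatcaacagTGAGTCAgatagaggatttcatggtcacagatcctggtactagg
Mmp1b: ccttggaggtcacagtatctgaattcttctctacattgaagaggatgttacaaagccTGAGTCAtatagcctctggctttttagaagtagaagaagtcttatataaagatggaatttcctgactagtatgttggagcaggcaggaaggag
Mmp3: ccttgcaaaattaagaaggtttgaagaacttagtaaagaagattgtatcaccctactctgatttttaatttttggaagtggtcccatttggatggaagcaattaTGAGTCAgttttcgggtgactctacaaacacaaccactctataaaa
Mmp10: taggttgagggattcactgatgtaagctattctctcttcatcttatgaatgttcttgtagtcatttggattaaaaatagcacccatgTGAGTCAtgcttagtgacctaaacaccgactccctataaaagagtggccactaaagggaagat
The AP-1 letters begin at -35 in Mmp13, -44 in Mmp12, -93 in Mmp1b, -46 in Mmp3 and -63 in Mmp10, counted from the RefSeq start. They are sequence matches and were not tested as sites.

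Library totals ran from 134117581 to 222065843 counts, so a count of 0 allowed up to 0.0135 to 0.0224 CPM (read counts scaled to the size of the library) at 3 counts, for counting error only. Counts of libraries of the same group differed beyond counting error in every pair (chi-square per degree of freedom of 17.7 or more), so none was a copy. Some pairs were far more alike than others. In HC11 DOX + DIP the values were 33.85 for libraries 7 and 9 and 42.86 for 4 and 6, and up to 2362. In HC11 DOX they were 51.1 for libraries 7 and 9 and 51.65 for 8 and 10, and up to 763.5. The fits took every library as separate, and leaving out 1 library keeps the one most like it. Epithelial markers were counted in every library, with Cdh1 at 197 CPM or more. The 6 epithelial markers summed to between 429 and 2202 CPM in HC11 DOX + DIP, between 2132 and 3045 CPM in 4T1 and between 3383 and 8009 CPM in HC11 DOX libraries. With DIP Cdh1, Krt5 and Krt14 were called lower, each with no overlap, and Krt18 was called higher. In 4T1 Krt8 and Krt18 were called higher, and Epcam, Krt5 and Krt14 lower. Of the markers of other cells, Ptprc and Adgre1 (macrophages), Cdh5 (endothelium) and Thy1 (fibroblasts) were at up to 0.0613, 0.0337, 0.0610 and 0.0544 CPM, while others were higher. The 5 macrophage markers summed to between 10.04 and 27.2 CPM in HC11 DOX + DIP, between 15.1 and 22.5 CPM in 4T1 and between 8.29 and 12.1 CPM in HC11 DOX libraries, nearly all of it Csf1r and Cd68. Cd68 was called higher with DIP, and both were called higher in 4T1. The 4 endothelial markers summed to between 0.270 and 1.56 CPM in HC11 DOX + DIP, between 0.115 and 0.31 CPM in 4T1 and between 3.29 and 5.23 CPM in HC11 DOX libraries, and Pecam1 was called lower in both comparisons. The 7 fibroblast markers summed to between 20.6 and 268 CPM in HC11 DOX + DIP, between 9.49 and 15.8 CPM in 4T1 and between 38.1 and 98.8 CPM in HC11 DOX libraries. The part of these lists in the results was not tested. HC11 DOX + DIP libraries 8 and 10 stood apart from the other 8. In 4T1, libraries 1 and 2 held the most signal of genes typical of HC11. Over 228 such genes the medians were 3.04% and 4.36% of the HC11 DOX level, against 0.523% to 1.35% in the other 6 4T1 libraries. These genes were chosen at over 10 CPM in HC11 DOX and under 2% of that level in each of 4T1 libraries 3, 5, 6, 7 and 8. The medians of those libraries were thus bound to lie under 2%, and only libraries 1, 2 and 4 were free of the choice. For some of the results that rest on HC11 DOX + DIP libraries 8 and 10 or on 4T1 libraries 1 and 2, values without them are given too.

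Levels between genes were set side by side as CPM per kilobase of exon, from GENCODE vM21 lengths. In HC11 DOX + DIP libraries the Mmp transcripts with the largest mean share of the summed Mmp level were Mmp15, Mmp14 and Mmp11, with 44.5%, 15.7% and 14.1%. In 4T1 libraries they were Mmp14, Mmp9 and Mmp11, with 35.4%, 24.2% and 14.0%. In HC11 DOX libraries they were Mmp15, Mmp14 and Mmp2, with 32.8%, 28.2% and 16.2%. Membrane-type enzymes thus made up much of the Mmp transcript level in all 3 groups. By mean share, the gelatinase among the leading genes was Mmp9 in 4T1 and Mmp2 in HC11 DOX libraries. By mean level in HC11 DOX + DIP libraries, Mmp2 was above Mmp11, at 9.235 and 7.62 CPM per kb. Adamts1, which cuts the proteoglycans aggrecan and versican, held 87.6% of the summed Adamts level in HC11 DOX + DIP, 59.0% in 4T1 and 85.2% in HC11 DOX libraries. Adamts8 and Adamts14 came next in 4T1, with 13.8% and 10.2%, while Adamts5 and Adamts4 came next by mean share in both HC11 groups. By mean level in HC11 DOX + DIP libraries, Adamts10 and Adamts4 were close, at 0.957 and 0.932 CPM per kb. The summed TIMP level was higher than the summed Mmp level in every library, at a median ratio of 5.49 in HC11 DOX + DIP (2.72 to 7.50), 2.84 in 4T1 (2.52 to 3.29) and 5.22 in HC11 DOX libraries (4.32 to 10.4). All 4T1 ratios lay below all HC11 DOX ratios, and the HC11 DOX + DIP ratios overlapped both.

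**Figure D1:**
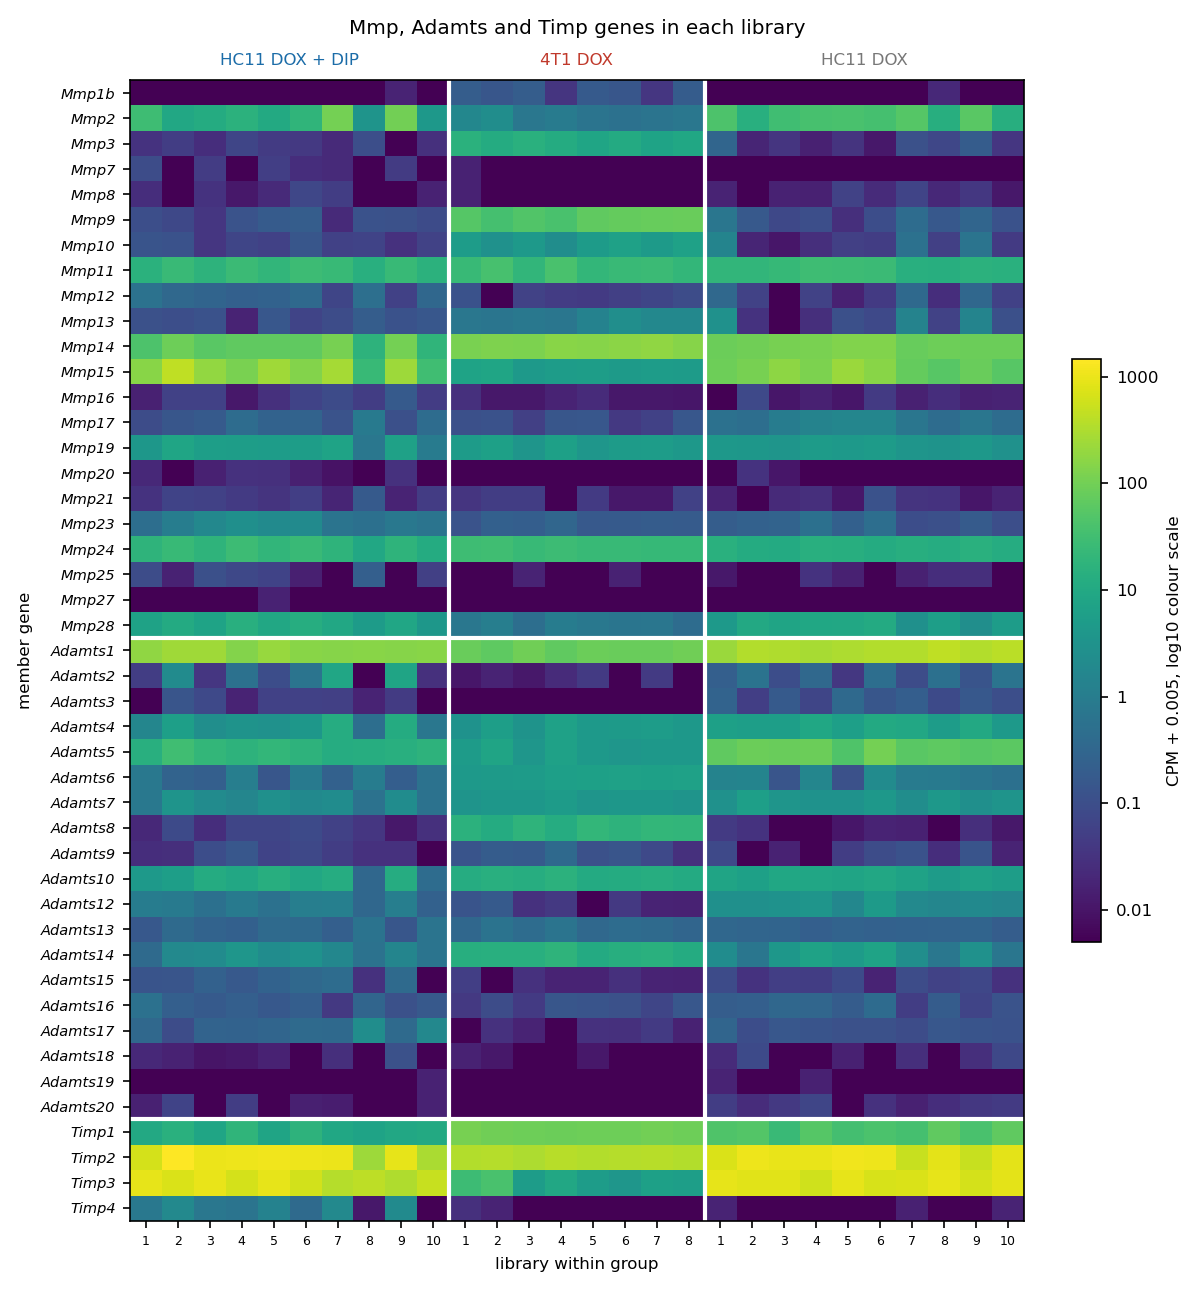
CPM of each of the 45 members (rows) in each of the 28 libraries (columns: 10 HC11 DOX + DIP, 8 4T1 DOX, 10 HC11 DOX) on a log10 colour scale, with 0.005 CPM added. Mmp3, Mmp9, Mmp10, Adamts8 and Adamts14 are brighter in all 8 4T1 columns, and Mmp15, Adamts5 and Timp3 darker, while columns 8 and 10 of HC11 DOX + DIP differ from their neighbours in Mmp14, Mmp19, Adamts10, Timp2 and Timp4.

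The first comparison asked how HC11 cells with DIP differed from HC11 cells without it. With DIP, the inhibitor gene Timp1 and the proteoglycanase gene Adamts5 each fell 4-fold and Adamts12 fell 3.32-fold, and every library with DIP lay below every library without it for these 3 genes. Adamts1, the most abundant Adamts transcript, fell 1.85-fold. Mmp23, Adamts17 and Adamts15 rose 5.23-fold, 4.96-fold and 3.98-fold, and Timp4 was counted almost only with DIP. Of the 45 members, 29 passed the filter on low counts, and 13 of these were called at an adjusted p under 0.05 by edgeR's quasi-likelihood test, 5 higher and 8 lower. That is 44.8% of the members tested, next to 45.5% of all 23829 genes tested (24.5% higher and 21.0% lower), so the members were called about as often as genes at large. Their median log2 fold change was -0.09, against 0.06 for all genes. Groups did not overlap for 0 of the members that rose and 3 of those that fell, where 4.76% of all genes were called higher and 6.66% lower without overlap.

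Among the inhibitors, Timp1, a soluble TIMP, had 7.52, 9.61 and 18.5 CPM in HC11 DOX + DIP libraries (lowest, median and highest, as in all such triplets below), against 24.99, 42.9 and 67.2 CPM in HC11 DOX libraries. All 10 libraries with DIP were below the lowest without it. The fall was 3.998-fold, with an SE of 0.20 on the log2 scale (edgeR adjusted p = 5.44e-08). This SE, like each SE of a fold change below, was computed back from the F statistic of the test. Timp2, which also takes part in the activation of Mmp2 by Mmp14, had 227, 1021 and 1462 CPM with DIP, against 503, 909 and 1124 CPM without it. The groups overlapped, with the wider range with DIP, and the log2 fold change was 0.05 ± 0.26 (adjusted p = 0.899). The lowest values with DIP were 227 and 302 CPM, in libraries 8 and 10, and the other 8 held between 648 and 1462 CPM. Timp3, which binds to the matrix, had 332, 639 and 980.4 CPM with DIP, against 580.2, 834 and 938 CPM without it. These ranges overlapped as well, and the log2 fold change was -0.29 ± 0.18 (adjusted p = 0.201). Syn3 overlaps 21.3% of the exon length of Timp3 on the other strand, and without a strand setting their reads cannot be told apart. In bulk RNA, fewer cells that express a gene and less of its RNA per cell cannot be told apart either.

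Timp4, the TIMP with the lowest level per length in all groups, did not pass the filter on low counts in this comparison. It had between 0.379 and 2.02 CPM in 8 of the 10 libraries with DIP. Libraries 8 and 10 with DIP had 0.00637 CPM (1 read) and 0. In HC11 DOX libraries Timp4 had at most 0.0128 CPM, with 6 reads in all 10 libraries together, against 1760 reads in the 10 with DIP. These 8 libraries thus lay above every library without DIP, and libraries 8 and 10 did not. Without libraries 8 and 10 Timp4 passed the filter, and its log2 fold change was 8.15 ± 0.57. That choice was made after the data were seen and took out the libraries with the least Timp4. The value thus describes the other 8 libraries and is no test of Timp4.

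Among the proteoglycanases, Adamts1 had 141, 159 and 241 CPM in HC11 DOX + DIP libraries, against 220, 345 and 430 CPM in HC11 DOX libraries. 8 of 10 libraries with DIP were below the lowest without it, and the log2 fold change was -0.88 ± 0.13 (adjusted p = 6.71e-06). Adamts5, an aggrecanase whose gene is next to Adamts1 on chromosome 16, had 12.2, 16.7 and 30.4 CPM with DIP, against 46.2, 66.4 and 103 CPM without it. The ranges were apart, and the fall was 3.994-fold, with an SE of 0.17 on the log2 scale (adjusted p = 5.86e-09). Adamts4, the other main aggrecanase, had 0.458, 3.08 and 11.9 CPM with DIP, against 4.55, 6.19 and 10.4 CPM without it. It was spread more widely with DIP, with its lowest values in libraries 8 and 10 and its highest in 7 and 9, and did not pass the test (-0.66 ± 0.44, adjusted p = 0.228), though limma voom called it lower (-1.22, adjusted p = 0.0312). Adamts15, a versican-cutting enzyme, had 0, 0.201 and 0.419 CPM with DIP, against 0.0126, 0.0505 and 0.0887 CPM without it. It rose by the test (1.99 ± 0.52, adjusted p = 0.00355), with 8 of 10 libraries above all without DIP and libraries 8 and 10, at 0.0255 CPM and 0, inside or below their range. By limma voom it was not called (1.39, adjusted p = 0.14).

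Adamts7 and Adamts12, which are known to cut the cartilage protein COMP, both fell. Adamts12 had 0.240, 0.858 and 1.11 CPM in HC11 DOX + DIP libraries, against 1.63, 2.36 and 4.70 CPM in HC11 DOX libraries, with no overlap (-1.73 ± 0.28, adjusted p = 3.61e-05). Adamts7 had 0.560, 2.07 and 3.40 CPM with DIP, against 2.35, 3.20 and 6.20 CPM without it (-0.92 ± 0.30, adjusted p = 0.0147). The 3 procollagen N-proteinases differed among themselves. Adamts2 had 0, 0.314 and 8.39 CPM with DIP, against 0.0337, 0.279 and 0.632 CPM without it. Its high values were in libraries 7, 9 and 2, at 8.39, 7.80 and 2.19 CPM, and of the other 7, libraries 3, 8 and 10 were below all libraries without DIP and the rest lay within their range. The call (2.70 ± 1.02, adjusted p = 0.0347) was lost without library 7 (2.03, adjusted p = 0.0978) or 9 (2.10, adjusted p = 0.0903) with DIP, or without any of libraries 1, 3, 5, 7 and 9 of HC11 DOX (2.53 to 2.63, adjusted p up to 0.0566). Limma voom gave 0.20 (adjusted p = 0.905), and with no filter on low counts its adjusted p was 0.0622. Adamts3 was low throughout, at up to 0.136 CPM with DIP, against up to 0.365 CPM without it, and fell (-1.86 ± 0.54, adjusted p = 0.00762). Adamts14 had 0.378, 1.75 and 3.70 CPM with DIP, against 0.689, 2.67 and 7.56 CPM without it, and did not pass the test (-0.89 ± 0.47, adjusted p = 0.132).

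Of the other Adamts genes, Adamts17, which is linked to fibrillin in the matrix, had 0.0904, 0.359 and 2.42 CPM in HC11 DOX + DIP libraries, against 0.0887, 0.119 and 0.292 CPM in HC11 DOX libraries. It rose (2.31 ± 0.49, adjusted p = 5.84e-04), and libraries 8 and 10 with DIP were the highest, at 2.42 and 1.78 CPM. Without them the log2 fold change was 1.16 (adjusted p = 0.0011). Adamts10, Adamts6, Adamts13 and Adamts16 did not pass the test, at 0.13, -0.85, 0.37 and 0.06. Adamts10, a binder of fibrillin, had 0.338 and 0.420 CPM in libraries 8 and 10 with DIP and between 4.21 and 13.2 CPM in the other 8, against 4.96 to 9.48 CPM in HC11 DOX libraries. Adamts13, which cuts von Willebrand factor, had 0.319 CPM at the median with DIP, against 0.266 CPM without it.

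Among the Mmp genes 2 of 12 tested rose and 2 fell. Mmp23, which is held in the membrane by its amino end, had 0.459, 0.903 and 2.57 CPM in HC11 DOX + DIP libraries, against 0.0942, 0.220 and 0.517 CPM in HC11 DOX libraries. 8 of 10 libraries with DIP were above all without it (2.39 ± 0.40, adjusted p = 4.67e-05). Mmp24, a transmembrane enzyme, had 9.35, 18.3 and 28.3 CPM with DIP, against 11.2, 12.8 and 14.7 CPM without it. It rose 1.496-fold (0.58 ± 0.15, adjusted p = 0.0039), again with 8 of 10 libraries above all others and libraries 8 and 10 lowest. BC029722 overlaps 13.6% of its exon length on the other strand. Mmp17, which has a GPI anchor, had 0.0863, 0.214 and 0.891 CPM with DIP, against 0.415, 0.691 and 1.64 CPM without it, and fell (-1.61 ± 0.41, adjusted p = 0.00304).

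The collagenase gene Mmp13 had 0.0128, 0.112 and 0.204 CPM in HC11 DOX + DIP libraries, against 0, 0.0883 and 2.84 CPM in HC11 DOX libraries. Its medians were thus close, and the high values were in HC11 DOX libraries 1, 7 and 9, at 2.84, 1.36 and 1.46 CPM, where the other 7 had at most 0.102 CPM. The call (-2.44 ± 0.87, adjusted p = 0.0257) was lost without HC11 DOX library 1 (-1.67, adjusted p = 0.0981) and by limma voom (-0.32, adjusted p = 0.819). In the same 3 libraries Mmp10 had 1.46, 0.554 and 0.639 CPM, against at most 0.0506 CPM in the other 7, and Mmp12 had 0.343, 0.366 and 0.336 CPM, against at most 0.0544 CPM. Mmp3 and Mmp9 were also highest there, at 0.111 to 0.305 CPM and 0.291 to 0.705 CPM. These 5 genes were therefore high together in 3 of 10 libraries that carry the same label. The median signal of 80 genes typical of 4T1 was 0.576%, 0.266% and 0.269% of the 4T1 level in libraries 1, 7 and 9. It was 0.138% to 0.339% in the other 7, where these genes were chosen to be under 2%. In libraries 1, 7 and 9 Mmp13 stood at 223%, 107% and 114% of its mean in 4T1, and Mmp10 at 30.55%, 11.59% and 13.35%. Mmp3 stood at 2.765%, 1.005% and 1.727%, and Mmp9 at 1.184%, 0.716% and 0.489%. The part of 4T1 signal in these values was not tested.

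**Figure D2:**
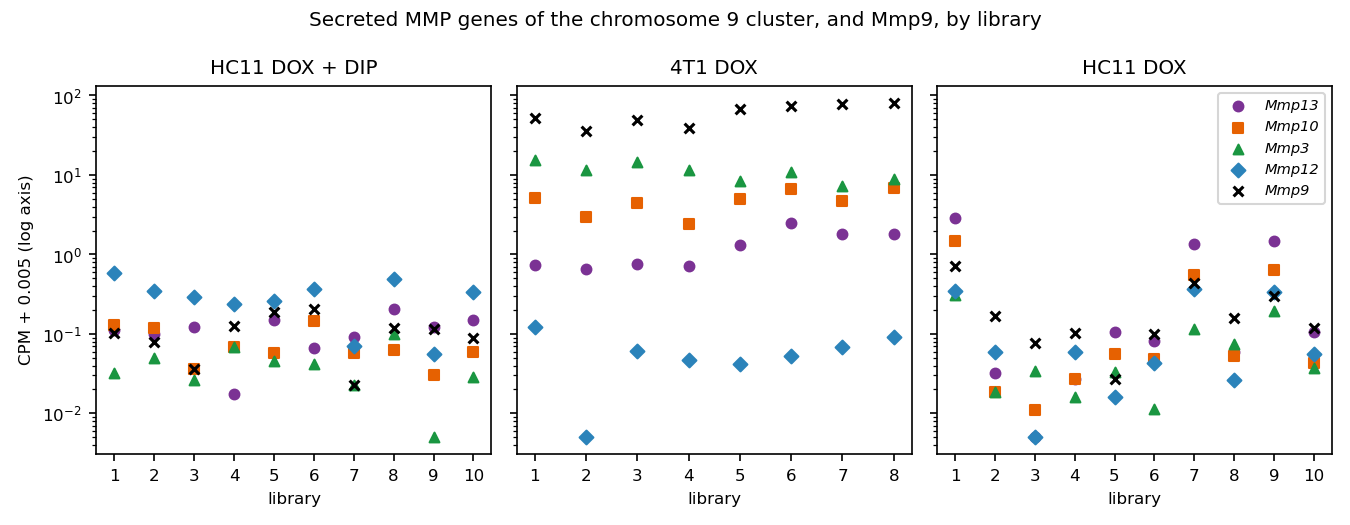
CPM of Mmp13, Mmp10, Mmp3 and Mmp12, from the chromosome 9 cluster, and of Mmp9, per library (log axis, 0.005 CPM added), for HC11 DOX + DIP, 4T1 DOX and HC11 DOX. In HC11 DOX the 3 libraries 1, 7 and 9 hold the high values, and in 4T1 all 8 libraries hold high Mmp9, Mmp3 and Mmp10 but low Mmp12.

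The abundant Mmp genes did not pass the test with DIP. Mmp15, a membrane-type enzyme, had 24.6, 174 and 438 CPM in HC11 DOX + DIP libraries, against 55.4, 101 and 223 CPM in HC11 DOX libraries (0.70 ± 0.40, adjusted p = 0.162). Libraries 8 and 10 with DIP held the lowest values, at 24.6 and 30.9 CPM. Without them Mmp15 was called higher (0.97, edgeR adjusted p = 0.00778), but leaving out its lowest values favours such a call. Mmp14, the membrane-type enzyme that activates Mmp2, had 16.7, 68.1 and 112 CPM with DIP, against 79.9, 91.5 and 134 CPM without it (-0.62 ± 0.27, adjusted p = 0.0653). Its lowest values, 16.7 and 18.9 CPM, were again in libraries 8 and 10, and without them it was not called (-0.39, edgeR adjusted p = 0.0552). With all libraries it was called lower by DESeq2 (adjusted p = 0.0483), limma voom (adjusted p = 0.0254) and the fit of all 3 groups (adjusted p = 0.023). Mmp2 itself, a gelatinase, had 3.44, 13.9 and 107 CPM with DIP, against 13.1, 36.2 and 59.8 CPM without it. The spread with DIP was wide, with 107 and 102 CPM in libraries 7 and 9 and 3.44 and 4.19 CPM in libraries 8 and 10 (-0.09 ± 0.55, adjusted p = 0.908). Without libraries 8 and 10 its sign turned (0.18, adjusted p = 0.776). In HC11 DOX libraries too Mmp2 was highest in those numbered 7 and 9, at 52.3 and 59.8 CPM, and low in those numbered 8 and 10, at 13.4 and 13.1 CPM, though the labels pair no libraries. Mmp11, a stromelysin that is secreted in active form, had 14.1, 22.02 and 28.6 CPM with DIP, against 13.3, 19.7 and 29.0 CPM without it, close in both groups (0.06 ± 0.17, adjusted p = 0.81).

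Mmp19, Mmp28, Mmp9 and Mmp12 did not pass either. Mmp19, a secreted enzyme, had 0.726, 5.56 and 8.17 CPM in HC11 DOX + DIP libraries, against 2.88, 3.96 and 4.93 CPM in HC11 DOX libraries (0.35 ± 0.32, edgeR adjusted p = 0.382). Its lowest values with DIP, 0.726 and 0.919 CPM, were in libraries 8 and 10. Without them Mmp19 was called higher (0.62, edgeR adjusted p = 0.00109), but leaving out its lowest values favours such a call. Mmp28, or epilysin, had a median of 9.06 CPM with DIP, against 6.88 CPM without it (0.40 ± 0.27). Mmp9, a gelatinase, was at up to 0.202 CPM with DIP, against up to 0.705 CPM without it (-1.03 ± 0.49, adjusted p = 0.0934). It was called lower in the fit of all 3 groups (-1.05, adjusted p = 0.0415) and without HC11 DOX library 5 (-1.17, adjusted p = 0.0428). Mmp12, the macrophage metalloelastase, had 0.0514, 0.310 and 0.572 CPM with DIP, against 0, 0.0525 and 0.366 CPM without it (1.24 ± 0.63, adjusted p = 0.114), and limma voom called it higher (2.13, adjusted p = 0.0175).

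The 16 members not tested with DIP were Timp4, above, 10 Mmp genes and 5 Adamts genes, and none but Timp4 reached 1.5 CPM in any HC11 library. Mmp7, the matrilysin, had 46 reads over 6 of the 10 libraries with DIP and 0 reads in all 10 without it. At a floor of 3 counts over the group, for counting error only, its mean was at least 13.6-fold higher with DIP. AV064505 overlaps 11.5% of the exon length of Mmp7 on the other strand. Mmp25 had 104 reads over 8 libraries with DIP, against 18 reads over 6 libraries without it. Adamts8 was at 0.0436 ± 0.0268 CPM with DIP, against 0.0123 ± 0.0130 CPM without it (SD, n = 10 each). With no filter on low counts Timp4, Mmp7, Mmp25 and Adamts8 were called higher, and the number of members called higher was then 8. The others, Mmp1b, Mmp3, Mmp8, Mmp10, Mmp16, Mmp20, Mmp21, Mmp27, Adamts9, Adamts18, Adamts19 and Adamts20, were called under neither setting.

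**Figure D3:**
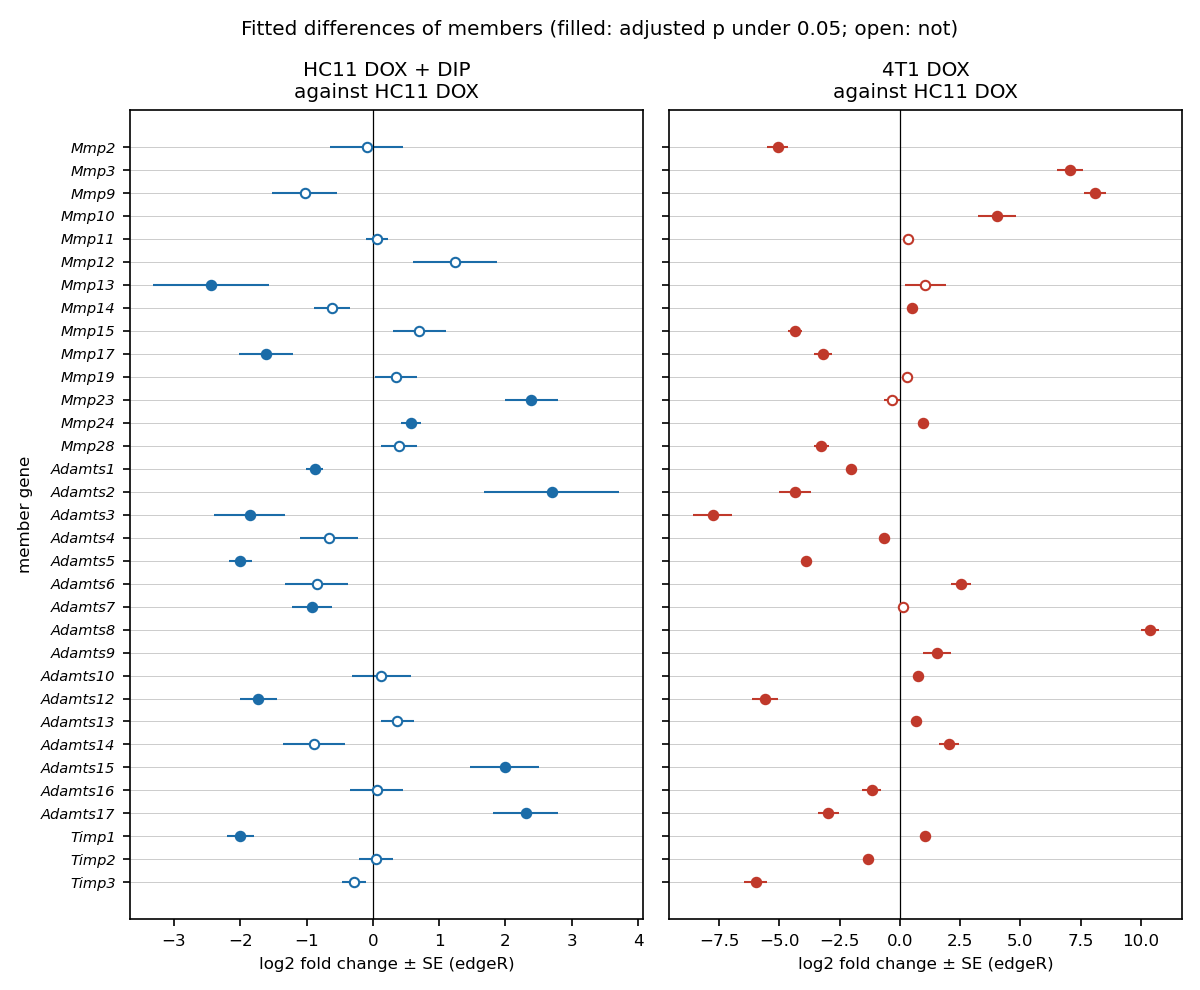
Fitted log2 fold changes (edgeR) ± SE (computed back from the F statistic) of the members tested, for HC11 DOX + DIP against HC11 DOX (left) and 4T1 DOX against HC11 DOX (right), with filled points at an adjusted p under 0.05. Axes differ between the panels, and the point of Adamts3 on the right is a fitted value against a group with 0 counts, not a measured size.

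The second comparison asked how the cancer line 4T1 differed from the untransformed line HC11 under the same DOX label. In 4T1 the secreted enzymes Mmp9, Mmp3 and Mmp10 and the proteoglycanase Adamts8 rose, by 16.4-fold for Mmp10 and over 100-fold for the other 3. Mmp2, Mmp15, Adamts5, Adamts12 and Timp3 fell by between 14.7-fold and 63.0-fold. The inhibitor transcripts changed unequally, with Timp1 higher and Timp2 and Timp3 lower in 4T1. Of the 45 members 31 were tested and 26 were called by edgeR, 12 higher and 14 lower. That is 83.9% of the members tested, beside 69.9% of all 23875 genes tested, 34.3% higher and 35.6% lower. The median log2 fold change was 0.12 for the members and -0.01 for all genes. Groups did not overlap for 9 of the members that rose and 11 of those that fell, where 19.5% of all genes were called higher and 17.5% lower without overlap. The labels name no batch, so the line and any batch that goes with it cannot be told apart.

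Among the gelatinases, Mmp9 had 36.0, 60.4 and 81.0 CPM in 4T1 libraries, against 0.0225, 0.135 and 0.705 CPM in HC11 DOX libraries. The ranges were far apart, with a log2 fold change of 8.10 ± 0.47 (adjusted p = 9.04e-12), or 275-fold. Mmp2 went the other way, with 0.544, 0.735 and 2.37 CPM in 4T1, against 13.1, 36.2 and 59.8 CPM in HC11 DOX libraries (-5.07 ± 0.42, adjusted p = 1.43e-09). The highest Mmp2 values of 4T1, 1.67 and 2.37 CPM, were in libraries 1 and 2, and without them the log2 fold change was -5.60 (adjusted p = 1.05e-09). The lines thus each had a gelatinase that the other had at a far lower level.

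Of the stromelysins, Mmp3 had 7.29, 11.2 and 15.3 CPM in 4T1 libraries, against 0.00629, 0.0308 and 0.305 CPM in HC11 DOX libraries (7.08 ± 0.54, adjusted p = 4.94e-10). Mmp10 had 2.45, 4.84 and 6.80 CPM in 4T1, against 0.00593, 0.0461 and 1.46 CPM in HC11 DOX libraries (4.04 ± 0.78, adjusted p = 1.25e-04). The lowest 4T1 library was above the highest HC11 DOX library for both, and without HC11 DOX library 1 the log2 fold change of Mmp10 was 4.90. Mmp11 had 19.6, 25.03 and 39.7 CPM in 4T1, against 13.3, 19.7 and 29.0 CPM in HC11 DOX libraries, and did not pass the test (0.35 ± 0.18, adjusted p = 0.0954). Of the collagenases, Mmp13 had 0.657, 1.03 and 2.47 CPM in 4T1, with HC11 DOX values of 0, 0.0883 and 2.84 CPM. All 8 4T1 libraries were above 7 of the 10 HC11 DOX libraries, and below or among the 3 with high Mmp13. The log2 fold change was 1.06 ± 0.84 (adjusted p = 0.268), 1.83 without HC11 DOX library 1, and 3.21 by limma voom (adjusted p = 0.00206). Mmp1b, a mouse counterpart of human MMP1 with a close paralog in Mmp1a, was not tested. It had 0.0303 to 0.2 CPM in all 8 4T1 libraries, against counts in 1 of 10 HC11 DOX libraries, at 0.0161 CPM. Mmp1a likewise had 0.0125 to 0.179 CPM in all 8 4T1 libraries, against counts in 1 of 10 HC11 DOX libraries. Reads of close copies can be shared, so the level of Mmp1b is uncertain, and Mmp12 overlaps 10.8% of its exon length on the other strand.

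The other cluster genes stayed low in 4T1. Mmp12 had at most 0.117 CPM in 4T1, against at most 0.366 CPM in HC11 DOX libraries, and was not tested. Mmp8 and Mmp7 each had 2 reads over all 8 4T1 libraries, and Mmp20 and Mmp27 had 0. The reads of the cluster in 4T1 were thus mainly those of Mmp3, Mmp10 and Mmp13, with few of Mmp1b and Mmp12 and nearly none of the rest. With no filter on low counts Mmp1b was called higher in 4T1 (adjusted p = 4.76e-08), and Mmp8, Adamts15, Adamts18 and Adamts20 lower.

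Among the membrane enzymes, Mmp15 had 4.58, 5.25 and 8.19 CPM in 4T1 libraries, against 55.4, 101 and 223 CPM in HC11 DOX libraries, a fall of 20.4-fold with no overlap (-4.35 ± 0.29, adjusted p = 6.73e-11). Mmp14 had 118, 148 and 179 CPM in 4T1, against 79.9, 91.5 and 134 CPM in HC11 DOX libraries. It rose 1.41-fold (0.50 ± 0.12, adjusted p = 9.60e-04), with 5 of 8 4T1 libraries above all HC11 DOX libraries, and was not called in the fit of all 3 groups (adjusted p = 0.0873). Mmp24 had 22.5, 23.9 and 30.3 CPM in 4T1, against 11.2, 12.8 and 14.7 CPM in HC11 DOX libraries, with no overlap (0.97 ± 0.08, adjusted p = 1.60e-09). The 2 abundant membrane-type genes of HC11, Mmp14 and Mmp15, therefore differed in opposite directions. Mmp17 had 0.0362, 0.109 and 0.147 CPM in 4T1, against 0.415, 0.691 and 1.64 CPM in HC11 DOX libraries (-3.20 ± 0.38, adjusted p = 3.28e-07). Mmp28 had 0.416, 0.712 and 1.10 CPM in 4T1, against 2.49, 6.88 and 11.01 CPM in HC11 DOX libraries (-3.26 ± 0.31, adjusted p = 1.28e-08). Both fell with no overlap, and 1700020L24Rik overlaps 12% of the exon length of Mmp28 on the other strand. Mmp19 and Mmp23 did not pass the test (0.29 and -0.31, adjusted p = 0.0663 and 0.403). Gm47093 and Tmem198b overlap 28.3% of the exon length of Mmp19. Mmp16, Mmp21 and Mmp25 were not tested and stayed at or below 0.0520 CPM in 4T1.

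Among the proteoglycanases, Adamts8 had 11.3, 17.3 and 20.5 CPM in 4T1 libraries, against 0, 0.00873 and 0.0381 CPM in HC11 DOX libraries. HC11 DOX libraries held 20 reads together, against 22162 in the 8 4T1 libraries (10.37 ± 0.37, adjusted p = 7.58e-15). Gm29724 overlaps 10.6% of its exon length on the other strand. Adamts15, the next gene to Adamts8 on chromosome 9, had at most 0.0468 CPM in 4T1, against at most 0.0887 CPM in HC11 DOX libraries, and was not tested. Of this pair of neighbours, Adamts8 was thus at a high level in 4T1 and Adamts15 was near 0. Adamts1 had 65.8, 84.2 and 96.5 CPM in 4T1, against 220, 345 and 430 CPM in HC11 DOX libraries (-2.03 ± 0.12, adjusted p = 5.68e-12). Adamts5 had 3.69, 4.39 and 7.59 CPM in 4T1, against 46.2, 66.4 and 103 CPM in HC11 DOX libraries (-3.88 ± 0.19, adjusted p = 4.88e-13). Both fell with no overlap. Adamts4 had 3.04, 4.69 and 6.70 CPM in 4T1, against 4.55, 6.19 and 10.4 CPM in HC11 DOX libraries, a smaller fall with overlap (-0.66 ± 0.19, adjusted p = 0.00408) that was not called in the fit of all 3 groups (adjusted p = 0.155). Adamts9 was low, at a median of 0.131 CPM in 4T1, against 0.0332 CPM in HC11 DOX libraries (1.54 ± 0.59, edgeR adjusted p = 0.0242), and was not called without 4T1 library 4 (1.24, edgeR adjusted p = 0.0744). A730049H05Rik and Gm15737 overlap 12% of the exon length of Adamts9 on the other strand. Adamts20 had 0 reads in 4T1 and 50 in HC11 DOX libraries. At a floor of 3 counts over the group, for counting error only, it was at least 14.7-fold lower.

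The procollagen N-proteinases again differed among themselves. Adamts14 had 10.9, 13.7 and 18.2 CPM in 4T1 libraries, against 0.689, 2.67 and 7.56 CPM in HC11 DOX libraries (2.03 ± 0.41, adjusted p = 1.97e-04). Adamts3, which also processes the lymphatic growth factor VEGF-C, had 0 reads in all 8 4T1 libraries, against 0.0472, 0.148 and 0.365 CPM in HC11 DOX libraries. It was called lower (edgeR adjusted p = 1.56e-06). At a floor of 3 counts over the group, for counting error only, it was at least 79.6-fold lower in 4T1. Adamts2 had at most 0.0384 CPM in 4T1, against 0.0337, 0.279 and 0.632 CPM in HC11 DOX libraries, and fell (-4.36 ± 0.67, adjusted p = 7.94e-06). So Adamts14 was the procollagen N-proteinase at a sizeable level in 4T1. Adamts12 had 0, 0.0306 and 0.175 CPM in 4T1, against 1.63, 2.36 and 4.70 CPM in HC11 DOX libraries (-5.60 ± 0.54, adjusted p = 1.31e-08). The 4T1 libraries 1 and 2 were the highest, and without them the log2 fold change was -6.93 (adjusted p = 3.13e-10). Adamts7, its closest relative by known substrate, had 3.42, 3.93 and 4.91 CPM in 4T1, against 2.35, 3.20 and 6.20 CPM in HC11 DOX libraries (0.12 ± 0.16, adjusted p = 0.508).

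Of the remaining Adamts genes, Adamts6 and Adamts10, which act on fibrillin, both rose with no overlap. Adamts6 had 4.43, 6.15 and 6.81 CPM in 4T1 libraries, against 0.107, 0.892 and 2.14 CPM in HC11 DOX libraries (2.55 ± 0.41, adjusted p = 1.60e-05). Adamts10 had 10.8, 12.4 and 16.1 CPM in 4T1, against 4.96, 7.45 and 9.48 CPM in HC11 DOX libraries (0.75 ± 0.13, adjusted p = 2.31e-05), and was not called in the fit of all 3 groups (adjusted p = 0.113). Adamts17 had 0, 0.0183 and 0.0384 CPM in 4T1, against 0.0887, 0.119 and 0.292 CPM in HC11 DOX libraries, a fall with no overlap (-2.97 ± 0.43, adjusted p = 4.55e-06). Adamts13 rose slightly (0.67 ± 0.17, adjusted p = 0.00146), and Adamts16 fell (-1.17 ± 0.40, adjusted p = 0.0127), but not without 4T1 libraries 1 and 2 (-0.99, adjusted p = 0.0502). Adamts18 and Adamts19 were not tested and had 4 and 0 reads over the 8 4T1 libraries.

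**Figure D4:**
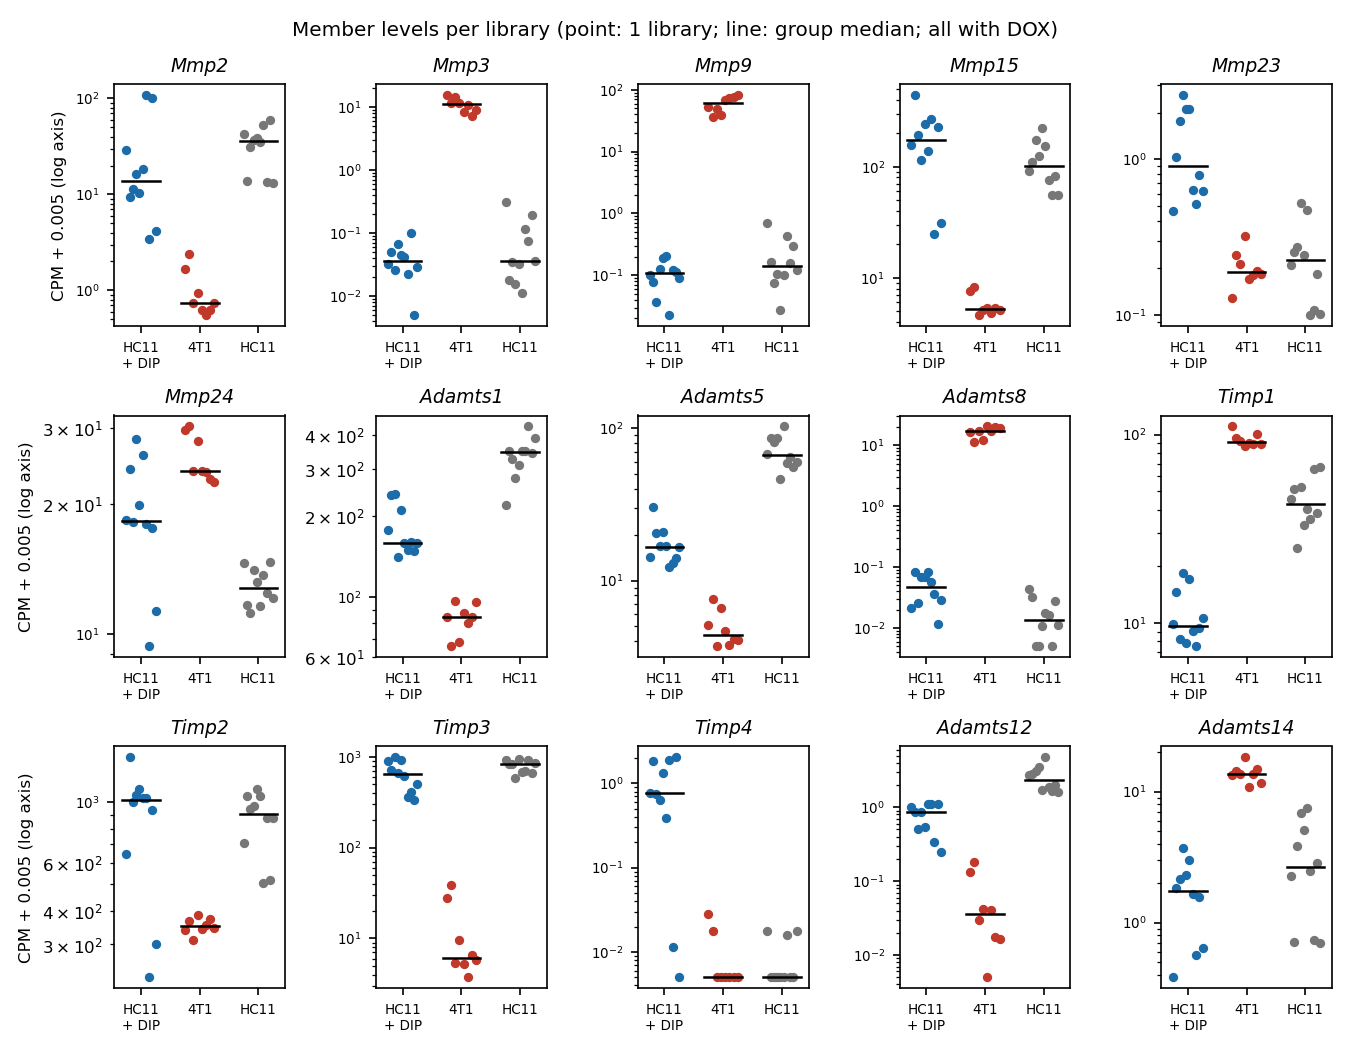
CPM per library (points, log axes, 0.005 CPM added) and group medians (lines) of 15 members in HC11 DOX + DIP, 4T1 DOX and HC11 DOX libraries. Timp1, Adamts5 and Adamts12 with DIP lie below HC11 DOX without overlap, and Timp3 in 4T1 lies below both HC11 groups, with libraries 1 and 2 highest at 28.0 and 38.6 CPM.

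Among the inhibitors, Timp1 had 87.2, 91.6 and 111 CPM in 4T1 libraries, against 24.99, 42.9 and 67.2 CPM in HC11 DOX libraries. It rose 2.05-fold with no overlap (1.03 ± 0.15, adjusted p = 2.75e-06). Timp2 had 312, 350 and 385 CPM in 4T1, against 503, 909 and 1124 CPM in HC11 DOX libraries, a fall of 2.50-fold with no overlap (-1.32 ± 0.14, adjusted p = 9.31e-08). Timp3 had 3.73, 6.14 and 38.6 CPM in 4T1, against 580.2, 834 and 938 CPM in HC11 DOX libraries (-5.98 ± 0.48, adjusted p = 1.17e-09). The 4T1 values of Timp3 were 3.54% and 4.88% of the HC11 DOX mean in libraries 1 and 2 and 0.471% to 1.202% in the other 6, next to medians of 3.04% and 4.36%, and of 0.523% to 1.35%, for the 228 genes typical of HC11 in the same libraries. Those genes were chosen to be under 2% in 4T1 libraries 3, 5, 6, 7 and 8, so their medians there were bounded by the choice. The part of their signal in the remaining Timp3 counts was not tested. Without libraries 1 and 2 the log2 fold change was -7.04 (adjusted p = 1.69e-14). Timp4 had 6 reads in 4T1 and 6 in HC11 DOX libraries, and was not tested. Per length, Timp1 and Timp2 held 53.6% and 45.6% of the summed TIMP level in 4T1 and Timp3 held 0.771%. In HC11 DOX + DIP libraries Timp2, Timp3 and Timp1 held 68.5%, 27.0% and 4.46%, and in HC11 DOX libraries 59.2%, 26.8% and 14.1%. The leading inhibitor transcript per length was thus Timp1 in 4T1 and Timp2 in both HC11 groups.

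**Figure D5:**
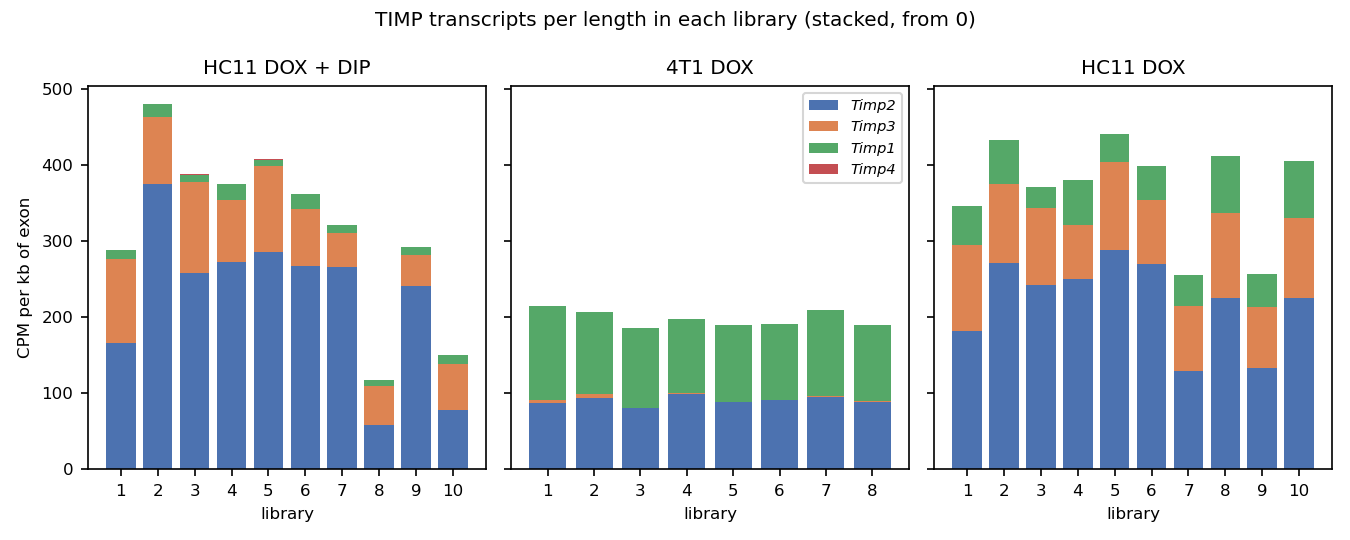
Stacked CPM per kb of exon of Timp2, Timp3, Timp1 and Timp4 in each library, from 0, for HC11 DOX + DIP, 4T1 DOX and HC11 DOX. The 8 4T1 bars are made almost wholly of Timp1 and Timp2, the HC11 DOX + DIP bars have a thin Timp1 share, and bars 8 and 10 with DIP are the lowest, at 117 and 151 CPM per kb.

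Lists of related genes, 5 in all, were counted in the same fits. Over all genes 24.5% were called higher and 21.0% lower with DIP, and each count is to be read beside these shares. Among genes that control or activate proteases, 7 rose and 6 fell of 19 tested in HC11 DOX + DIP against HC11 DOX libraries, with a median log2 fold change of -0.28 against 0.06 for all genes. Lcn2, whose product binds Mmp9, had 18.2 to 757 CPM with DIP, against 2.58 to 36.2 CPM without it, and rose (4.10 ± 0.66, edgeR adjusted p = 3.01e-05). Lrp8, a lipoprotein receptor, fell by 2.45 on the log2 scale with no overlap (adjusted p = 6.76e-06). Of the ADAM family, the membrane relatives of the Adamts enzymes, 2 of 10 tested rose and 4 fell, among them Adam12 (3.70-fold lower), Adam8 (2.003-fold lower) and Adam17 (1.21-fold lower, adjusted p = 0.0133). Of the ADAMTS-like genes, which lack the protease domain, 2 of 7 rose and 1 fell, and Adamtsl3 fell with no overlap (-1.59 ± 0.32, adjusted p = 2.95e-04). Of the astacin family and its enhancers 1 of 4 rose, Pcolce2 (1.38, adjusted p = 0.0186), and 1 fell. Of matrix substrates 6 of 20 rose and 3 fell, with a median of -0.08. The proteoglycan gene Dcn (3.36, adjusted p = 9.39e-04) and the link protein gene Hapln1 (2.99, adjusted p = 0.0188) rose, and the collagen gene Col3a1 fell (-2.93, adjusted p = 0.0146), all with overlapping groups. Dcn is also 1 of the fibroblast markers, of which 3 of 6 tested rose and 0 fell with DIP.

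In 4T1 against HC11 DOX libraries, where 34.3% of all genes were called higher and 35.6% lower, 5 of 20 tested genes of protease control rose and 10 fell, with a median of -0.69 against -0.01 for all genes. Reck, which encodes a membrane-held inhibitor of Mmp enzymes, had 2.46 ± 0.631 CPM in 4T1 (n = 8) and 42.7 ± 34.0 CPM in HC11 DOX libraries (SD, n = 10), a fall of 17.9-fold (-4.16 ± 0.47, edgeR adjusted p = 1.66e-07). The proprotein convertase gene Pcsk6 and the serpin gene Serpine2 fell by 5.07 and 4.95 on the log2 scale, and all 3 had no overlap. Of the ADAM family 9 of 11 rose, 4 of them at least 2-fold, and 1 fell. Adam19 led them at 16.6 to 38.0 CPM in 4T1, against 0.0222 to 0.157 CPM in HC11 DOX libraries (8.44 ± 0.30, adjusted p = 5.65e-15), followed by Adam12 (1.68) and Adam9 (0.77). Of the ADAMTS-like genes 0 of 6 rose and 5 fell, with Adamtsl4 (-3.45), Adamtsl3 (-2.63) and Adamtsl5 (-0.68) named by the rule. Of the astacin family and its enhancers 3 of 4 rose and 1 fell, Tll1, with no overlap. The astacin protease Bmp1, which removes the carboxyl end of procollagens, rose 3.35-fold (1.74 ± 0.09, adjusted p = 5.59e-13), and its enhancers Pcolce and Pcolce2 rose by log2 fold changes of 1.78 and 1.25. Of matrix substrates 3 of 20 rose and 15 fell, with a median of -2.87. The largest falls were those of Col3a1 (-7.86), Col2a1 (-7.05) and Acan (-6.39, adjusted p = 1.23e-10), and Acan, the aggrecan gene, had 1.97 to 17.6 CPM in 4T1, against 360.3 to 767 CPM in HC11 DOX libraries. Of the fibroblast markers, which share collagen genes with this list, 5 of 6 tested fell and 0 rose.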

How the data were processed

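Per the labels' protocols, RNA was taken up in TRIzol and ribosomal RNA was removed before sequencing. Per the submitters' processing notes, fastp 0.23.2 and featureCounts 2.0.1 were used with mouse build GRCm39. The deposited files, 1 for each library, hold whole-number read counts per gene with no normalisation, judged from the values. The aligner is not given in the sources used here, nor is the strand setting. Without a strand setting, overlapping genes on opposite strands cannot be told apart.

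Groups came from the cell line and treatment labels. Library numbers follow the order of the series and are names, since no label pairs libraries, and any pairing would not enter these fits. The labels do not say that libraries came from separate cultures, so p-values measure only the spread between libraries, which may be technical. The tests on counts used edgeR 4.0.16 in R 4.3.3 (filterByExpr over the 2 groups compared, TMM, robust glmQLFit, glmQLFTest), with Benjamini-Hochberg adjustment over all genes tested and calls at an adjusted p under 0.05. The procedure was run on simulated data, with libraries drawn independently around a single mean per gene and group. Such data hold no pairs of like libraries, so the run cannot show how the p-values behave with them. The SE of a log2 fold change was its absolute value over the square root of the F statistic of glmQLFTest. It thus restates that test and is no separate estimate. CPM used TMM factors over all 28 libraries. Symbols, exon lengths and overlaps came from GENCODE vM21 (GRCm38), and promoters from RefSeq, so counts and sequences are of different builds. Alternatives were median-of-ratios scaling, DESeq2 1.42.0, voom in limma 3.58.1, no filter, a fit of all 3 groups, leaving out each library, and the pairs of libraries named in the text.

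Members, lists of related genes, tests and the rule on which genes to name were chosen with earlier results of these data known. Full values were given to members called with groups that did not overlap, to the 4 Timp genes and to the 3 members of the Mmp and of the Adamts family with the highest CPM per kb in each group. Members outside that rule were described by range or, where a call or a left-out library bore on them, in full. From each related list the 3 called genes with the largest log2 fold change and a mean log2 CPM of at least 2 were named. For 1 related gene that this rule names, the result is not reported here.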

Additional observations from a re-analysis of the deposited data

Results flagged for a closer look

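Of 93 sets of libraries (a member in a group) examined on the log2 CPM scale, 3 held a library far from the rest of its group, and chance flags about 1 in 20. Mmp13 had 0.0128 CPM in HC11 DOX + DIP library 4, where the other 9 held 0.0623 to 0.204 CPM. Adamts7 had 4.91 CPM in 4T1 DOX library 4, where the other 7 held 3.42 to 3.99 CPM. Adamts17 had 0.292 CPM in HC11 DOX library 1, where the other 9 held 0.0887 to 0.150 CPM. HC11 DOX library 1 was also the highest of its group for Mmp13, Mmp10, Mmp9 and Mmp3.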

How the results depend on the processing

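Under median-of-ratios scaling, all 29 members tested with DIP and all 31 tested for 4T1 kept their direction and their side of the threshold. So did 28 and 31 by DESeq2, 21 and 30 by limma voom, 28 and 31 with no filter, 27 and 28 in the fit of all 3 groups, 26 of those with DIP without libraries 8 and 10, and 30 of those for 4T1 without libraries 1 and 2. With DIP, limma voom lost 3 calls, gained 3 and reversed 2 signs. The number of members called higher with DIP was 5, and it was 8 with no filter on low counts and 8 without HC11 DOX + DIP libraries 8 and 10, a setting chosen after the data were seen, as was the one without 4T1 libraries 1 and 2. Leaving out each library in turn gave 11 to 13 members called with DIP (4 to 5 higher, 7 to 9 lower) and 25 to 28 for 4T1 (11 to 14 higher, 14 lower each time). Direction reversed with DIP for Mmp2 (0.18 without libraries 8 and 10, and between -0.56 and 0.04 with a single library left out), Adamts10 (-0.52 by limma voom), Timp2 (-0.08 by limma voom, and between -0.07 and 0.16 with a library left out), Mmp11 (between -0.00 and 0.12) and Adamts16 (between -0.21 and 0.22), all of them values that did not pass the test. The cause was not tested. No paired analysis was possible because the labels give no replicate numbers that groups share. At 3 counts single libraries reach down to 0.0135 to 0.0224 CPM, and a level below that can give 0 counts in a library. Reads summed over a group reach lower, to 0.00185 CPM for the HC11 DOX libraries. With no filter the median log2 fold change of all genes in 4T1 was -0.22, against -0.01 with it, and 31 members were called, against 26.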
